A study of Rattus norvegicus with 9 samples.

Results

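Mlana, Pmel, Tyr, Dct, Mitf, Sox10, Erbb3 and Gap43 are 8 melanocyte and Schwann cell genes, chosen by symbol from the 35362 genes counted. All 8 were present in the table, each in all 9 samples. They were set side by side because Mlana had been seen in cells grown from subcutaneous fat and was nearly absent from cells grown from visceral fat, and the question was whether other genes of the neural crest lineages followed it. The levels of Mlana chose the set, so they are given as a description, and only the other 7 genes bear on the question.

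RNA was sequenced from adipose-derived mesenchymal stem cells (ASCs), the adherent fibroblast-like cells that grow out of digested fat. SASCs came from the subcutaneous fat of the groin, PASCs from the perirenal fat around the kidney and EASCs from the epididymal fat beside the testis. The animals were male Sprague Dawley rats, an albino strain, bought at 6 weeks of age. They were fasted before the cells were isolated, and no experimental treatment is described. Each group held 3 samples at the third passage. No sorting for surface markers is described. Replicates are described as wells of a culture plate, 6 to a group, of which 3 were analysed here, and all sample names share a prefix. Whether different wells held cells of different animals is not given in the sources used here, so p-values measure the spread between these samples, which may be technical.

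The neural crest is an embryonic cell population that leaves the dorsal neural tube and gives rise to melanocytes, Schwann cells, peripheral neurons and other cells. In the melanocyte lineage the transcription factors Sox10 and Pax3 switch on Mitf, and Mitf in turn drives the genes of the melanosome, the organelle that makes pigment. Pmel forms the fibrils of the melanosome, Mlana is a melanosome membrane protein that acts with Pmel, and Tyr and Dct are enzymes of melanin synthesis. Sox10 and the neuregulin receptor Erbb3 also mark Schwann cells and their precursors, and Gap43 is a growth cone protein found in outgrowing axons and in some Schwann cells. Mitf is also expressed outside the pigment lineage, for example in osteoclasts and mast cells.

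The samples held between 17591916 and 30299032 counts. Levels are given as CPM, counts per 1000000 counts of the library, on library sizes scaled by TMM, a normalization that sets aside the most extreme genes, and 3 counts in 1 sample corresponded to between 0.104 and 0.159 CPM. Intervals and limits drawn from counts cover counting error only. Counts on ribosomal RNA genes took 10.4% to 15.5% of the SASC libraries, 22.4% to 32.9% of the PASC libraries and 15.9% to 40.3% of the EASC libraries, and each SASC library had a lower share than any visceral one. With these genes removed before normalization, the log2 difference from SASCs was -3.86 in EASCs and -2.82 in PASCs for Mitf and -1.01 and -0.62 for Pmel, and no call on a member changed. The ASC label was checked on mesenchymal stem cell markers, and 10 of 10 were measured in every group, with a summed level of 22251 to 23381 CPM in SASCs, against 22844 to 27792 CPM in PASCs and 26472 to 29225 CPM in EASCs. The sums were carried largely by the collagen Col1a1, at 10690 to 20323 CPM in the group means, and several markers differed between the groups. Dcn, a matrix proteoglycan, was at 6875 CPM in SASCs, against 218 CPM in PASCs and 300 CPM in EASCs, and Pdgfra, a receptor of fibroblasts, was at 1542, 278 and 235 CPM, and both were called lower in both visceral groups, while Eng (59.9 CPM in SASCs and 204 CPM in EASCs) and Itgb1 (1045 and 2950 CPM) were called higher in EASCs. Comparisons were made on the 14770 genes that passed a filter on low counts, and a gene was called where its fold change exceeded 2 at an adjusted p-value under 0.05 in the quasi-likelihood test of edgeR.

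Mlana (melan-A, chr1:247869756-247883558, plus strand) was the gene that chose the set. The SASC samples held 263, 232 and 151 counts of Mlana, which are 9.14, 9.84 and 7.37 CPM. The PASC samples held 0, 1 and 0 counts, and the EASC samples held 0 in each. The level was 8.78 ± 1.28 CPM in SASCs (SD, n = 3), and no SASC sample came near any visceral one. Over each group as a whole, the level in SASCs was at least 210-fold higher than that in EASCs when 3 counts over the group were taken as the limit, and the ratio to the 1 count in PASCs was 637 with a 95% counting interval of 114 to 25184. Per kilobase of gene length Mlana stood at 11.5 ± 1.67 CPM per kb in SASCs, above 71.3% of the genes tested in that group. In bulk RNA, fewer cells of a type and less RNA per cell cannot be told apart, so these levels do not say whether a few cells or all cells of the SASC cultures carried Mlana. No other gene overlaps the span of Mlana. The nearest measured neighbour, RGD1311595, lies 15014 bases away and differed by -0.58 on the log2 scale between EASCs and SASCs and by -0.72 between PASCs and SASCs. None of the 5 measured genes within 250000 bases was called in either comparison.

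Tyr and Dct, the enzymes of melanin synthesis, had no count. Tyr (tyrosinase, chr1:151012598-151106802, minus strand), which catalyses the rate-limiting step, was at 0 in all 9 samples. Dct (dopachrome tautomerase, chr15:103208041-103245033, minus strand), which acts downstream of it, was likewise at 0 in all 9 samples. A count of 0 over 3 samples allows a level of up to 0.0412 CPM in SASCs, against 0.0418 CPM in PASCs and 0.0423 CPM in EASCs. In the SASC cultures, therefore, 646 counts of Mlana stood beside none of Tyr and none of Dct.

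The promoters of these genes are shown because Mlana, Tyr and Dct belong to the same Mitf-driven programme in melanocytes and yet differed in their counts here. Of the 8 genes, 5 had a promoter sequence in the RefSeq table of the rat genome GRCr8, whose coordinates differ from those above, and each sequence runs from 250 bases before to 50 bases after the annotated start. Capitals mark CATGTG, an E-box bound by Mitf, or its reverse complement CACATG, and in Dct also ACAAAG, a motif of Sox factors.
Mlana, chr1:236882825-236883124, plus strand: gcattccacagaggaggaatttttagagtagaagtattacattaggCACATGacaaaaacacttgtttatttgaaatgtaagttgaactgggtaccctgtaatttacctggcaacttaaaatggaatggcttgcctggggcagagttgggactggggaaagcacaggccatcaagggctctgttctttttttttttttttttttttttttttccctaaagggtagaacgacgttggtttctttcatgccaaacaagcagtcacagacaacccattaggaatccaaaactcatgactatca
Tyr, chr1:150622808-150623107, minus strand: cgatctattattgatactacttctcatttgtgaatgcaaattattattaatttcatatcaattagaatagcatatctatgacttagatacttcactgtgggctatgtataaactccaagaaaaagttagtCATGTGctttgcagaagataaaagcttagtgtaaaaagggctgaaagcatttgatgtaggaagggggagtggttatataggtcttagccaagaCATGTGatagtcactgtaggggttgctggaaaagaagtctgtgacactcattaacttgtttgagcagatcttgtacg
Dct, chr15:101507980-101508279, minus strand: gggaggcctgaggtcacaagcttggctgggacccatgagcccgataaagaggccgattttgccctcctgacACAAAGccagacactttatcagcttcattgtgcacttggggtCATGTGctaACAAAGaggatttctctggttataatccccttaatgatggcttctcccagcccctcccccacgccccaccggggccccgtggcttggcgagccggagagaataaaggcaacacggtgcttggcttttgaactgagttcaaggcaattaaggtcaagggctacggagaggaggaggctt

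The Mlana window held CATGTG once, on the opposite strand, with its first base at -204 from the start. The Tyr window held it at -120 and at -27, and the Dct window held it at -137 with ACAAAG at -179 and -128, the last of which lies 3 bases after the E-box. The windows of Mitf and Pmel held none of the motifs searched, and the related E-box CACGTG was in none of the 5 windows. Any other starts of these genes, such as those of Mitf, were not searched, and counts per gene do not separate transcripts. Among all 33469 promoter windows of the same length, 14% held CATGTG, 6.42% held CACGTG and 18.8% held ACAAAG on either strand. Each match is a description of the letters in the window and does not show binding.

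Mitf (chr4:130342624-130422735, plus strand), the transcription factor of the melanocyte lineage, did follow Mlana. The SASC samples stood at 36.8, 40.5 and 41.5 CPM, from 851 to 1058 counts. The PASC samples stood at 5.24, 5.49 and 6.09 CPM, and the EASC samples at 2.09, 3.0 and 3.04 CPM. The 3 groups did not overlap, with SASCs highest, PASCs between and EASCs lowest, and the means were 39.6 ± 2.5, 5.61 ± 0.436 and 2.71 ± 0.536 CPM (SD, n = 3 each). Against SASCs, Mitf fell by 3.87 on the log2 scale in EASCs (SE 0.123, 95% interval -4.12 to -3.61, adjusted p = 1.58e-20 by edgeR) and fell by 2.83 in PASCs (SE 0.111, adjusted p = 1.85e-18). The level in EASCs was below that in PASCs by a log2 difference of -1.04 (SE 0.146, 95% interval -1.34 to -0.74, adjusted p = 2.23e-06). This last difference passed the adjusted p in every fit that left out a sample, but fell below 2-fold without PASC sample 3 (-0.98) and without EASC sample 1 (-0.88). Per kilobase, Mitf stood at 20.6 CPM per kb in SASCs, above 83% of the genes tested there, and at 2.92 and 1.41 CPM per kb in PASCs and EASCs. Unlike Mlana, Mitf was therefore measured in all 9 samples, with at least 50 counts in each.

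Pmel (chr7:3133343-3143827, plus strand), the fibril protein of the melanosome, was measured in every sample at a low level. The SASC samples stood at 3.51, 4.54 and 3.80 CPM, from 78 to 107 counts. The PASC samples stood at 2.29, 3.18 and 2.12 CPM and the EASC samples at 2.13, 1.78 and 1.92 CPM. Each SASC sample was above each visceral sample, while PASCs and EASCs overlapped, and the means were 3.95 ± 0.530, 2.53 ± 0.567 and 1.95 ± 0.177 CPM. Pmel fell by 1.02 on the log2 scale in EASCs against SASCs (SE 0.222, 95% interval -1.47 to -0.56, adjusted p = 2.22e-04), a change just past 2-fold that was no longer called without SASC sample 2 (-0.91) or without EASC sample 2 (-0.95). The difference of -0.63 in PASCs against SASCs (SE 0.215, adjusted p = 0.0116) did not reach 2-fold. Between EASCs and PASCs the difference of -0.39 did not pass the test (95% interval -0.87 to 0.09, adjusted p = 0.223). The span of Pmel overlaps that of Dgka on the other strand by 2 bases. Dgka held 4275 counts over the 9 samples against 609 for Pmel, and its log2 differences were 0.07 in EASCs and 0.34 in PASCs against SASCs, neither of them a fall.

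None of the 3 Schwann cell and growth cone genes of the set was called, and all 3 were measured at low counts. Erbb3 (chr7:2991016-3010312, minus strand), the receptor through which neuregulin sustains Schwann cell precursors, held 3 to 23 counts per sample. The SASC samples stood at 0.660, 0.127 and 0.585 CPM, the PASC samples at 0.459, 0.411 and 0.371 CPM and the EASC samples at 0.502, 0.405 and 1.03 CPM, and all 3 groups overlapped. The difference from SASCs was 0.46 on the log2 scale in EASCs (SE 0.525, 95% interval -0.62 to 1.54, adjusted p = 0.438) and -0.15 in PASCs (SE 0.555, 95% interval -1.29 to 0.99, adjusted p = 0.823). Between EASCs and PASCs it was 0.61 (95% interval -0.49 to 1.71, adjusted p = 0.428). These intervals still allow a fall of 2-fold in PASCs and a rise of that size in EASCs, which were not detectable at this depth, whereas falls of the size seen for Mitf lie outside them.

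Sox10 (chr7:120393254-120403523, minus strand), the transcription factor that both lineages share, held 1, 2 and 0 counts in the SASC samples, 2, 3 and 2 in the PASC samples and 2, 0 and 2 in the EASC samples. None exceeded 3 counts, and the SASC samples, where Mlana and Mitf were highest, were within the range of the others. Gap43 (chr11:58624198-58717916, plus strand), the growth cone protein, held 2, 5 and 4 counts in the SASC samples, 2, 0 and 0 in the PASC samples and 2, 0 and 2 in the EASC samples. Both genes were under the filter on low counts and their groups overlapped in each comparison. In two-sided exact permutation tests of CPM, Gap43 gave p = 0.3 for EASCs and p = 0.2 for PASCs against SASCs, and Sox10 gave p = 0.8 and p = 0.2, where 3 samples against 3 cannot give less than 0.1. The span listed for Gap43 lies inside that of Phldb2 on the same strand, which held 6915 counts, so the few counts of Gap43 could belong to either gene. Phldb2 itself rose by 2.18 in EASCs and by 1.73 in PASCs against SASCs, and its part in the counts of Gap43 was not tested. Over each group Gap43 held 11 counts in SASCs, 2 in PASCs and 4 in EASCs, which is the direction of Mlana, and at this depth neither a difference nor its absence could be shown for Gap43 or Sox10.

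Of the 8 members, then, 4 passed the filter on low counts (Mlana, Mitf, Pmel and Erbb3), Sox10 and Gap43 were measured below it and Tyr and Dct were at 0. Leaving out Mlana, 2 members (Mitf and Pmel) were lower in EASCs than in SASCs by the call, where 27.8% of all tested genes were called in either direction and 14.2% were called lower. In PASCs against SASCs 1 member (Mitf) was lower, where 26.9% of all tested genes were called and 14.9% were called lower. In EASCs against PASCs 1 member (Mitf) was lower, where 7.39% of all tested genes were called, with 2.2% lower and 5.19% higher. At an adjusted p under 0.05 and any fold, Mitf and Pmel passed in both comparisons with SASCs, where 69.7% of all tested genes passed in EASCs and 69.2% in PASCs, and Mitf alone passed between EASCs and PASCs, where 30.7% did. With this background, a call on 1 or 2 genes against SASCs does not set the members apart from the rest of the transcriptome.

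**Figure D1:**
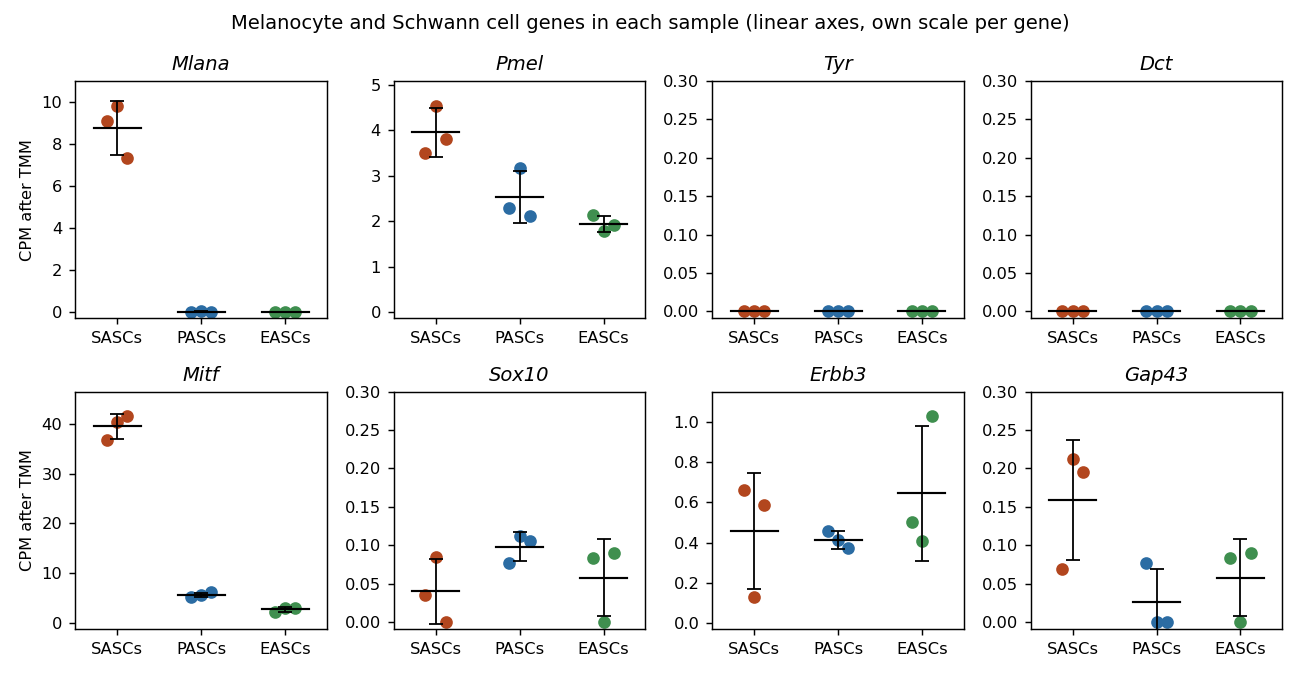
CPM of each of the 8 members by group (SASCs, PASCs and EASCs), on a linear axis for each gene. Points are samples, and the line and bar are the mean and the SD of 3 samples. The SASC samples of Mitf (36.8 to 41.5 CPM) and Mlana (7.37 to 9.84 CPM) lie apart from all visceral samples, Pmel is separated by a smaller margin, the groups of Erbb3, Sox10 and Gap43 overlap, and Tyr and Dct are at 0 in all 9 samples.

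The other genes of these lineages were taken from 4 lists of pigment genes, melanocyte receptors and ligands, neural crest transcription factors and Schwann cell genes. They held 56 genes other than the members, of which 55 were in the table and 34 were tested. Against SASCs, 11 of the 34 were lower and 6 were higher in EASCs, and 11 were lower and 4 were higher in PASCs. On total counts without TMM, which shift the median of all genes downwards, 15 were lower and 4 higher in EASCs and 14 were lower and 4 higher in PASCs. The share called lower was 32.4% in both comparisons, where 14.2% of all genes tested were called lower in EASCs and 14.9% in PASCs. The shares called higher were 17.6% in EASCs and 11.8% in PASCs, where 13.6% and 12% of all genes tested were called higher. Between EASCs and PASCs 4 were higher and 4 lower in EASCs, or 11.8% each, where 5.19% and 2.2% of all genes were. The lists were chosen with results of these data known, so these shares are a description. Genes of the lists therefore moved in both directions between the depots.

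Among the melanosome and pigment genes, 7 of 13 were tested, 1 was lower in EASCs than in SASCs and 3 were lower in PASCs, with none higher. The median log2 difference was -0.60 in EASCs and -0.53 in PASCs, against 0.01 and -0.01 over all genes tested. Gpnmb, a glycoprotein related to Pmel that is also abundant in macrophages and osteoblasts, was the most highly expressed of them at 1479 ± 26.7 CPM in SASCs, against 280 ± 6.48 CPM in PASCs and 519 ± 11 CPM in EASCs. It fell by 1.51 in EASCs (SE 0.0533, adjusted p = 1.55e-19) and fell by 2.40 in PASCs (SE 0.0550, adjusted p = 1.27e-23), so PASCs were lowest, which is not the order seen for Mitf. Rab27a and Rab38, small GTPases of melanosome transport and biogenesis, had log2 differences of -1.10 and -1.18 in PASCs and were called, while their differences of -0.53 and -0.71 in EASCs did not reach 2-fold. The pigment genes Tyrp1, Slc45a2, Gpr143 and Mlph, which are more restricted to pigment cells, were at or near 0 in every group. Slc24a5, an ion exchanger of the melanosome, was measured in every group at 11.4 ± 1.48, 9.36 ± 1.94 and 10.6 ± 0.991 CPM in SASCs, PASCs and EASCs, and its differences of -0.31 in PASCs and -0.11 in EASCs did not reach 2-fold. Its span overlaps that of Myef2 on the other strand. The summed level of 7 leukocyte markers, which include macrophage genes, was lowest where Gpnmb was highest, at 74.3 to 81.4 CPM in SASCs, against 125 to 131 CPM in PASCs and 204 to 212 CPM in EASCs, and their part in the level of Gpnmb was not tested. The members of that list did not move together, since the macrophage gene Cd163 was at 27.8 ± 1.85, 7.52 ± 0.112 and 30.8 ± 1.75 CPM in SASCs, PASCs and EASCs and fell by 1.88 in PASCs (adjusted p = 3.55e-16).

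The Gpnmb promoter is shown beside those of the melanosome genes because Gpnmb was the pigment list's most abundant gene, and its window held the E-box CATGTG once, on the opposite strand, at -22 from the start.
Gpnmb, chr4:79340878-79341177, plus strand, GRCr8: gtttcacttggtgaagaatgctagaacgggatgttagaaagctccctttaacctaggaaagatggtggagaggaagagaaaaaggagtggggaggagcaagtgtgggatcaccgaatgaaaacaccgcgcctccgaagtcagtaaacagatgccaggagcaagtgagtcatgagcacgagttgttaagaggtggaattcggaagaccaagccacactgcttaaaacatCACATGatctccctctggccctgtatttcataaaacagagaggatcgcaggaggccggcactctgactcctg

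**Figure D2:**
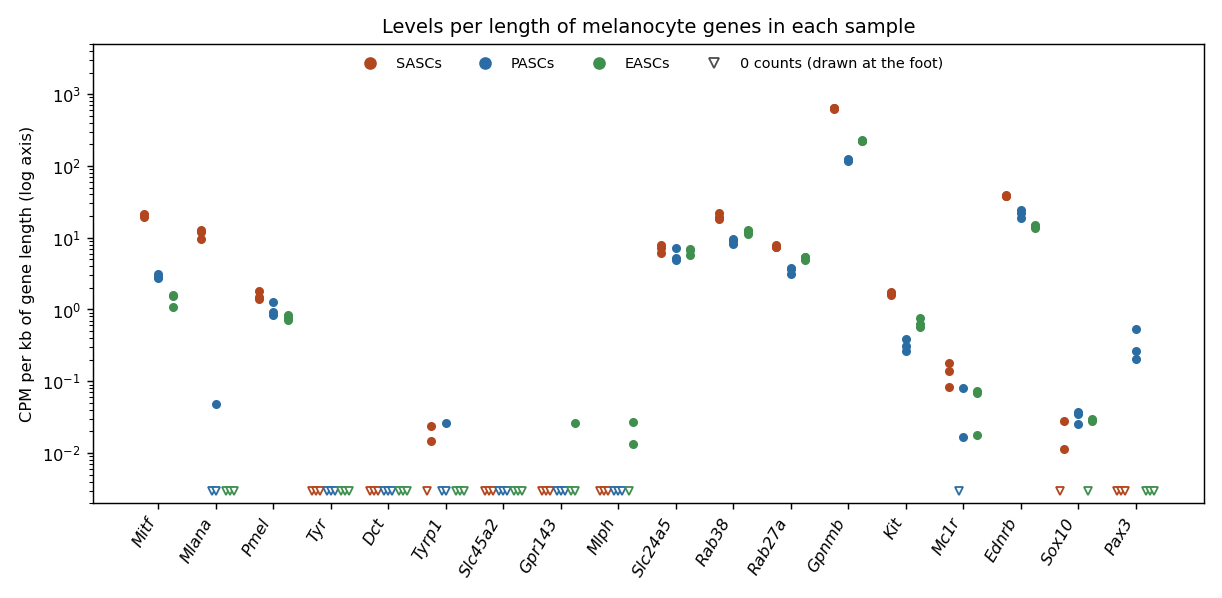
CPM per kilobase of gene length, on a log axis, for members and listed pigment genes in each sample of SASCs, PASCs and EASCs. Each point is 1 sample, and open triangles at the foot mark 0 counts. Gpnmb is highest in every group, Mlana in SASCs stands at 11.5 CPM per kb, and Tyr and Dct lie at the foot in all 9 samples.

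Among the melanocyte receptors and ligands, 8 of 10 were tested, with 4 lower and 2 higher in EASCs than in SASCs, and 4 lower and none higher in PASCs. One of the higher calls, Pomc, rested on low levels (0.257 ± 0.105 CPM in SASCs and 0.650 ± 0.285 CPM in EASCs, adjusted p = 0.0281) and was lost without SASC sample 1 (adjusted p = 0.143) and without EASC sample 1 (adjusted p = 0.190), which leaves 1 higher. Kit, the receptor that melanoblasts need for migration and survival, was at 8.80 ± 0.503 CPM in SASCs, against 1.70 ± 0.344 CPM in PASCs and 3.45 ± 0.531 CPM in EASCs, and fell by 2.37 in PASCs (SE 0.185, adjusted p = 7.71e-12) and fell by 1.34 in EASCs (SE 0.168, adjusted p = 6.86e-08). Its ligand Kitlg fell by 1.92 in EASCs (SE 0.0789, adjusted p = 5.14e-18), while its difference of -0.58 in PASCs did not reach 2-fold. Edn1, a ligand of the endothelin receptors, went the other way and rose by 2.24 in EASCs (SE 0.0816, adjusted p = 3.43e-19). The endothelin receptor Ednrb was at 180, 103 and 68.0 CPM in SASCs, PASCs and EASCs. It fell by 1.40 in EASCs (SE 0.0687, adjusted p = 2.79e-16), while its difference of -0.81 in PASCs did not reach 2-fold. The span of Ednrb overlaps that of Mycbp2 on the same strand. Mc1r, the melanocortin receptor of melanocytes, held 9 to 18 counts in the SASC samples, and its fall of 1.86 in PASCs (adjusted p = 0.0187) was lost without SASC sample 3 (adjusted p = 0.0796), without PASC sample 1 (adjusted p = 0.0936) and without PASC sample 3 (adjusted p = 0.0828). Because Kit and Mitf are also expressed in mast cells, 7 mast cell markers were examined. The mast cell proteases Cpa3, Tpsab1 and Tpsb2 were at 0 in all 9 samples, and Fcer1a, Ms4a2 and Mcpt1 held at most 4 counts over any group. The summed level of the 7, which was mostly that of Hdc, was 0.452 to 0.679 CPM in SASCs, against 0 to 0.262 CPM in PASCs and 0.268 to 0.608 CPM in EASCs. Hdc, of the 7 the only 1 tested, stood at low levels of 0.544, 0.151 and 0.405 CPM in SASCs, PASCs and EASCs. It was called lower in PASCs (-1.69, adjusted p = 0.0199 by edgeR) and not in EASCs (-0.40, adjusted p = 0.521). The part of mast cells in the levels of Kit and Mitf was not tested.

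In the family of factors closest to Mitf, no other member was called lower. Tfe3 and Tfeb, lysosomal regulators that can pair with Mitf, were not called against SASCs, with differences of 0.22 and 0.53 in EASCs and of 0.08 and 0.55 in PASCs. Tfec, which is known from macrophages, rose by 2.43 in EASCs against SASCs (SE 0.256, adjusted p = 2.89e-09), opposite to Mitf, while its difference of 0.58 in PASCs did not pass (adjusted p = 0.0776).

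Among the neural crest transcription factors, 8 of 14 were tested, with 2 higher and 3 lower in EASCs and 2 higher and 2 lower in PASCs against SASCs. Sox5, a factor that modulates Sox10 targets in melanocytes, was at 3.71 ± 0.503 CPM in SASCs and fell by 2.35 in EASCs (SE 0.304, adjusted p = 1.24e-07) and fell by 2.80 in PASCs (SE 0.319, adjusted p = 1.27e-08). Snai2, which acts in crest cell migration and in many mesenchymal cells, fell by 1.90 in EASCs (adjusted p = 4.40e-09) and fell by 1.28 in PASCs (adjusted p = 1.61e-06). Sox9, a factor of the crest and of cartilage, rose instead, by 2.73 in EASCs (SE 0.0963, adjusted p = 1.65e-19) and by 2.27 in PASCs (SE 0.0977, adjusted p = 1.47e-17). Pax3, which works with Sox10 on the Mitf promoter in melanocytes and is also a factor of the muscle lineage, held 19, 25 and 36 counts in the PASC samples and 0 in all SASC and EASC samples, so that PASCs were at least 27.1-fold higher than SASCs. Pax3 thus had its counts in the group where Mlana held 1 and not in the group where Mlana held 646.

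Among the Schwann cell genes, 11 of 18 were tested, with 2 higher and 3 lower in EASCs and 2 higher and 2 lower in PASCs against SASCs. S100b, a calcium-binding protein of Schwann cells that is also expressed in adipocytes and chondrocytes, came closest to the order of Mitf among them, with 29.8 ± 1.83 CPM in SASCs, against 6.94 ± 0.429 CPM in PASCs and 1.47 ± 0.197 CPM in EASCs. It fell by 4.33 in EASCs (SE 0.133, adjusted p = 6.77e-21) and fell by 2.11 in PASCs (SE 0.106, adjusted p = 4.70e-16). Egr2, a factor of Schwann cell myelination that is also induced by growth factors in many cells, was at 31.5 ± 2.62 CPM in SASCs and fell by 3.40 in EASCs (SE 0.151, adjusted p = 2.72e-17) and fell by 3.87 in PASCs (SE 0.158, adjusted p = 4.80e-18). Ncam1 and Ngfr, surface proteins of non-myelinating Schwann cells and of other cells, moved the opposite way. Ncam1 rose by 3.65 in EASCs (SE 0.0779, adjusted p = 1.95e-24) and by 2.15 in PASCs (SE 0.0772, adjusted p = 2.46e-19). Ngfr rose by 1.98 in EASCs (adjusted p = 4.05e-04) and by 2.90 in PASCs (adjusted p = 1.13e-06). The levels of Ngfr were low, at 0.226 CPM in SASCs (4 to 9 counts per sample), 1.76 CPM in PASCs and 0.925 CPM in EASCs. Cdh19, Fabp7 and Foxd3, genes of Schwann cell precursors and of the crest, were at or near 0 in every group.

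For Erbb3, its partner and ligand genes were also examined. Erbb2, the receptor that pairs with Erbb3, was not called, with differences of -0.16 in EASCs and 0.16 in PASCs. Nrg1, the neuregulin ligand, rose by 2.98 in PASCs (SE 0.205, adjusted p = 5.27e-13) and by 1.42 in EASCs (SE 0.227, adjusted p = 3.64e-06) against SASCs. Egfr fell by 1.01 in PASCs (adjusted p = 4.15e-14), a change close to 2-fold that did not reach it without SASC sample 3 (-0.95), without PASC sample 1 (-0.97) or without PASC sample 2 (-0.99).

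**Figure D3:**
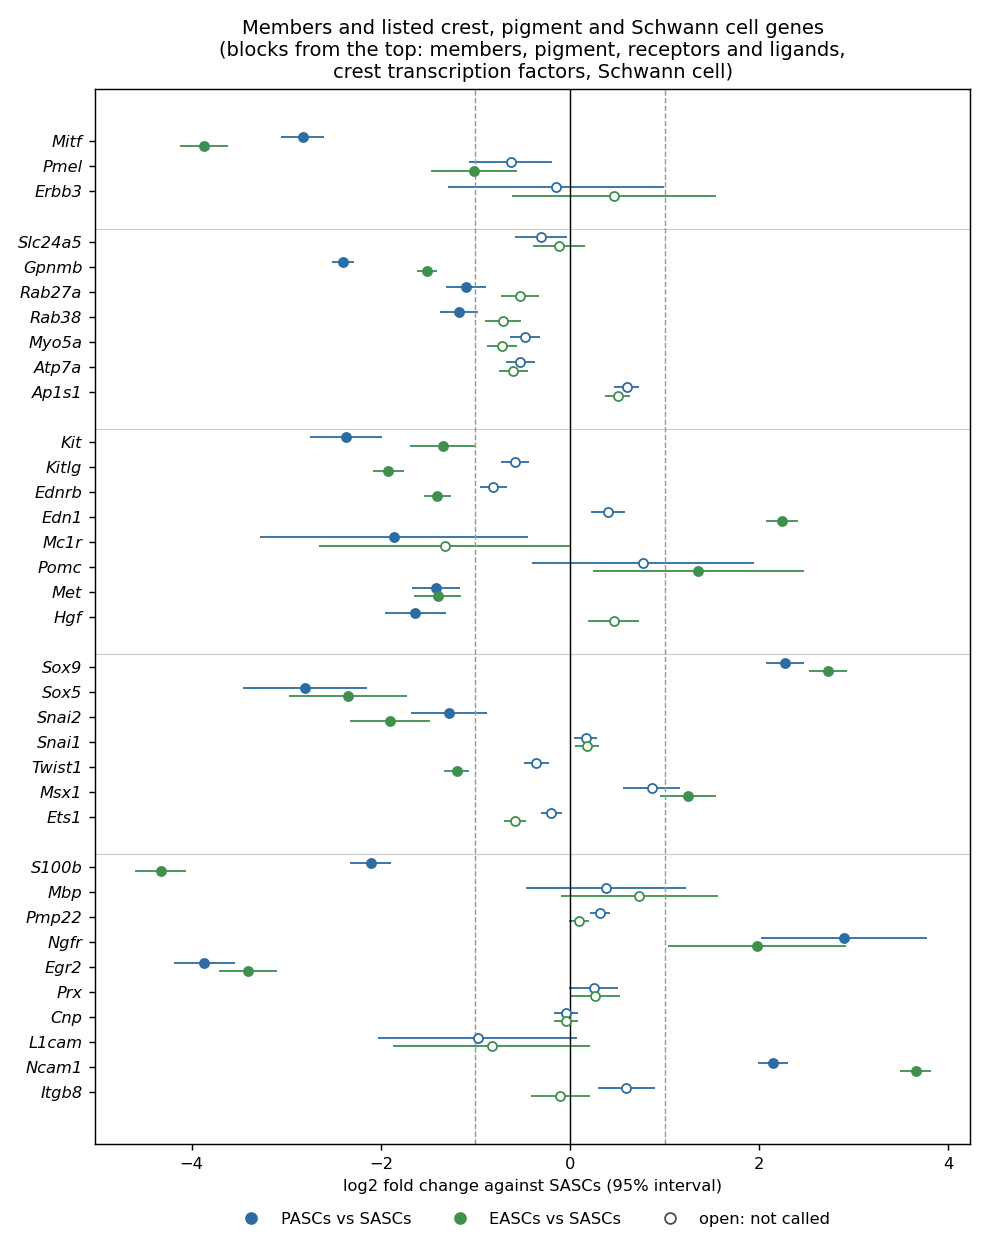
Log2 fold change of EASCs and of PASCs against SASCs for the tested members other than Mlana and tested genes of the 4 lists, without Pax3 and without genes not reported here, with 95% intervals. Filled points were called, open points were not, and dashed lines mark 2-fold. Mitf, Gpnmb, Kit, Met, Sox5, Snai2, S100b and Egr2 lie to the left of the lines in both comparisons, as does Mc1r, which was not called in EASCs. Sox9, Ngfr and Ncam1 lie to the right in both.

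Markers of other cell types also differed between the groups. The summed level of 5 mesothelial markers was 18.8 to 20.1 CPM in SASCs, against 94.7 to 102 CPM in PASCs and 126 to 137 CPM in EASCs, and that of 12 neuron markers was 28.5 to 36.7, 70.1 to 72.6 and 134 to 148 CPM. Most of the neuron sum was Tubb3, at 31.9, 58.8 and 122 CPM in the group means, and 9 of the 12 were under the filter on low counts. The 6 skeletal muscle markers summed to 10.5 to 12.2 CPM in SASCs, against 27.8 to 29.6 CPM in PASCs and 183 to 198 CPM in EASCs, nearly all of it Des, an intermediate filament also found in smooth muscle, while Myog and Pax7 were at 0 in all 9 samples. Myod1 held 20, 28 and 0 counts over SASCs, PASCs and EASCs. The 6 epithelial markers summed to 1.22 to 1.53, 3.55 to 4.17 and 6.35 to 8.70 CPM, with Krt8 and Krt18 called higher in both visceral groups. The summed level of 5 endothelial markers was 41.6 to 44.1 CPM in SASCs, against 11.5 to 14.3 CPM in PASCs and 29.3 to 32.1 CPM in EASCs, and that of 5 pericyte markers was 89.4 to 97.4, 69.8 to 79.3 and 77.2 to 89.4 CPM. Within the pericyte list Notch3, Abcc9, Kcnj8 and Rgs5 were called lower in both visceral groups, as Mitf was, with Notch3 at 48.0, 4.43 and 22.5 CPM and Abcc9 at 28.7, 2.31 and 6.91 CPM in SASCs, PASCs and EASCs, while Cspg4 alone rose, from 8.29 to 66.5 and 50.2 CPM. Within the endothelial list Kdr was called lower in both visceral groups, Cdh5, Pecam1 and Vwf were called lower in PASCs, and Tek was called higher in both. The part of these cell types in the results was not tested. For skin, 8 keratinocyte markers summed to 3.17 to 3.35 CPM in SASCs, below the 9.25 to 11.4 CPM in PASCs and the 4.44 to 5.86 CPM in EASCs, and 4 of the 8 were at 0 in SASCs. Dsp and Krt14 were called higher in both visceral groups, while Dsc3, a desmosomal cadherin, was at 1.21 CPM in SASCs, against 0.131 CPM in PASCs and 0.341 CPM in EASCs, and was called lower in both.

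**Figure D4:**
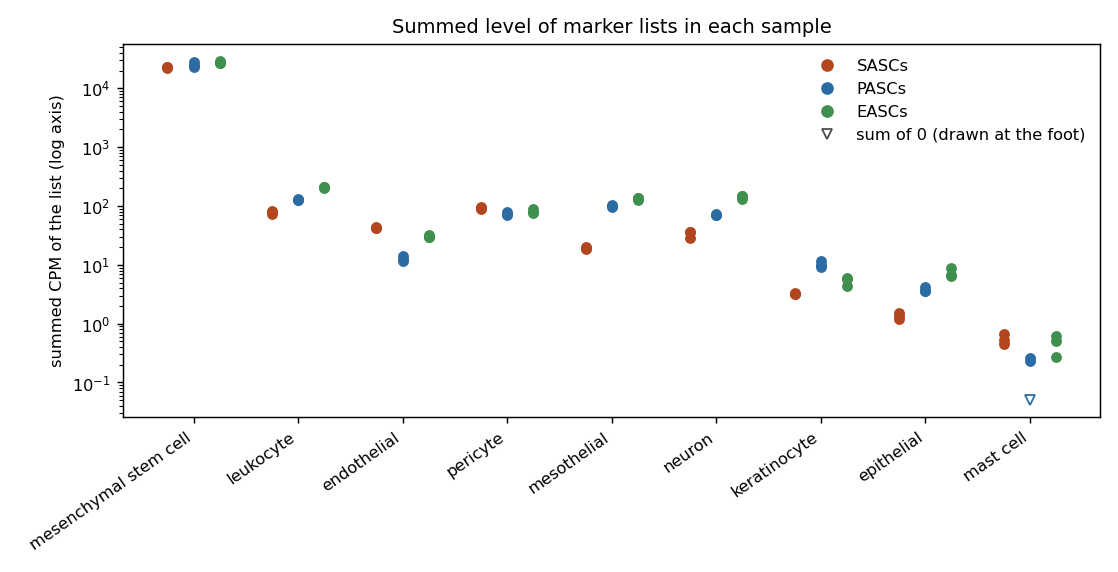
Summed CPM of each marker list in each sample of SASCs, PASCs and EASCs, on a log axis. Each point is 1 sample, and an open triangle at the foot marks a sum of 0. The mesenchymal list is at 22251 CPM or more in every sample, the mast cell list is under 1 CPM, and the mesothelial, neuron and leukocyte lists are lowest in SASCs.

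The genes whose levels over the 9 samples were most like those of each member were found by Pearson correlation of log2 CPM, where the samples share their 3 groups and a large share of genes differs between them. For Mlana they were LOC100125362 (r = 0.999), Lnx1 (r = 0.999) and Fgf23 (r = 0.998), and 1342 of the other 14769 genes had an r above 0.95. For Mitf they were Col6a1 (r = 0.998), Cant1 (r = 0.997) and Cdon (r = 0.997), with 940 genes above 0.95. For Pmel they were LOC679168 (r = 0.986), Gabrr2 (r = 0.984) and Rsbn1 (r = 0.980), with 15 genes above 0.95. For Erbb3 the most alike was Neurl1b (r = 0.881), and no gene exceeded 0.95. No member was among the 3 genes most like another member.

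As a description of how Mlana compares with other genes, a rule was set on its own values. Of the 9947 genes with at least 100 counts in each SASC sample, 3 had at most 1 count in each visceral sample, and these were Mlana, Elfn2 and Fgf23. With up to 5 counts allowed in a visceral sample there were 12 genes, among them Lrat, Irx1 and Slitrk6.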

How the data were processed

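RNA-seq of rat SASCs, PASCs and EASCs, 3 samples each, was analysed, and metabolite data were not analysed here. The authors trimmed reads with cutadapt and FastX-Toolkit, aligned them with TopHat2 and deposited whole-number read counts per gene, not normalized. Their methods name the genome rn6 and the processing notes name rn5. Positions are printed as deposited, and the deposited names of unplaced sequences are those of rn6. The counting tool, its use of strand and its handling of reads shared by genes are not given in the sources used here.

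Counts were normalized by TMM (factors 0.74 to 1.23), filtered with filterByExpr and fitted over all 9 samples with 3 groups in edgeR 4.0.16 (R 4.3.3), without a block. Benjamini-Hochberg adjustment was made over 14770 genes in each comparison. The common biological coefficient of variation was 0.0685. Intervals are 95%. Replicate libraries differed by more than counting noise, so none was treated as a repeat deposit of another, and whether they came from separate cultures was not tested by this. On simulated counts for EASCs against SASCs over 14770 genes with 200 changed, 181 of 200 were called at a fold of 2.5 and 197 of 200 at a fold of 4.

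The members and the gene lists were chosen with earlier results of these data known, and the lists were written from general knowledge. From each list the text names at most 4 genes, those with the largest change among the called, with defining genes near 0. A few further genes (Tfe3, Tfeb, Erbb2, Slc24a5, Pomc, Hgf, Met, Ednrb, Col1a1, Cd163, single markers of other cell types, Marcks, Dpysl2 and the neighbours and overlapping genes of members) were named after their values were seen. Results for some listed genes are not reported here. For each tested member the 3 genes most like it are named. Alternatives were DESeq2 1.42.0, total counts, removal of ribosomal RNA genes, no filter, fits of 2 groups, a replicate block, leaving out each sample and a call at any fold.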

Additional observations from a re-analysis of the deposited data

Results flagged for a closer look

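These results stand out because the difference between the visceral groups was itself tested and passed, so that the difference from SASCs was not the same in EASCs and PASCs. Among the members this held for Mitf, with a log2 difference of EASCs minus PASCs of -1.04 (adjusted p = 2.23e-06 by edgeR).

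Among the melanocyte receptors and ligands, EASCs exceeded PASCs by 1.84 in Edn1 (adjusted p = 1.76e-16), by 2.1 in Hgf (adjusted p = 1.21e-11) and by 1.02 in Kit (adjusted p = 2.26e-04), while Kitlg was lower in EASCs with a difference of -1.34 (adjusted p = 2.13e-13). Hgf, a ligand of the receptor Met, stood at 7.50 ± 0.433 CPM in SASCs, against 2.43 ± 0.438 CPM in PASCs and 10.3 ± 0.351 CPM in EASCs.

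Among the crest and Schwann cell genes, Ncam1 was higher in EASCs by 1.5 (adjusted p = 5.18e-16). S100b was lower there with a difference of -2.22 (adjusted p = 2.88e-12). Pax3 was at least 26.4-fold higher in PASCs than in EASCs, where it held no count.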

How the results depend on the processing

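Mitf was lower in both visceral groups than in SASCs in every alternative fit. The count of members called other than Mlana, 2 in EASCs and 1 in PASCs against SASCs and 1 in EASCs against PASCs, ranged over fits that left out a sample from 1 to 2 in the first and from 0 to 1 in the last, for the losses of Pmel and Mitf given above. Calling at any fold gave 2 members in PASCs, since Pmel then counted, and 10298, 10227 and 4530 genes in EASCs against SASCs, PASCs against SASCs and EASCs against PASCs, in place of 4105, 3979 and 1091. Of the listed genes it gave 19 lower and 10 higher in PASCs against SASCs, and 12 lower and 9 higher in EASCs against PASCs. Over fits that left out a sample, the difference of Erbb3 against SASCs ranged from -0.023 to 0.88 in EASCs and from -0.58 to 0.26 in PASCs, and it changed sign without EASC sample 3 (-0.023 in EASCs), without SASC sample 1 (0.26 in PASCs) and without SASC sample 3 (0.026 in PASCs). On total counts the median of all genes shifted to -0.39 in EASCs and -0.33 in PASCs against SASCs, and the share of calls that were higher was 28.3% and 28.5% in place of 48.8% and 44.7%, while Mlana in SASCs stood at 10.4 CPM. Replicate numbers did not pair the samples, since deviations of samples with the same number correlated between -0.03 and 0.04 over 9 pairs. With the replicate number as a block, 4061 and 3944 genes were called in EASCs and PASCs against SASCs, and the difference of Mitf was -3.87 and -2.82. Without the filter Gap43 differed by -1.38 in EASCs (adjusted p = 0.463 by edgeR) and -2.31 in PASCs (adjusted p = 0.234). The depth limits what can be said of Sox10, Gap43 and Erbb3, which held at most 23 counts in a sample.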

Other observations

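The growth cone genes, the list to which Gap43 belongs by function, were also examined. Of 9 genes 8 were tested, and against SASCs 5 were called higher and none lower in EASCs, and 4 were called higher and none lower in PASCs, where 13.6% and 12% of all genes tested were called higher and 14.2% and 14.9% lower. Dpysl3, a protein of the growth cone cytoskeleton, stood at 8.51 ± 0.466 CPM in SASCs, against 75.7 ± 2.63 CPM in PASCs and 128 ± 10.8 CPM in EASCs, and rose by 3.91 on the log2 scale in EASCs (adjusted p = 4.94e-25 by edgeR) and by 3.15 in PASCs (adjusted p = 7.63e-23). Stmn1, a microtubule regulator also used in dividing cells, rose by 2.27 in EASCs and by 2.62 in PASCs, and Cap2, an actin regulator at 0.551 CPM or less in each group, rose by 2.68 and 1.89. Stmn2, a relative of Stmn1, rose by 1.53 in EASCs, while its difference in PASCs was -0.50 (adjusted p = 0.0121). Marcks, an actin-binding substrate of protein kinase C, was at 79.0 ± 3.56 CPM in SASCs and differed by -0.70 in EASCs (adjusted p = 7.03e-08) and, in PASCs, by -0.78 (adjusted p = 1.12e-08), which passed the adjusted p but not 2-fold, as did that of Dpysl2 in PASCs (-0.37, adjusted p = 2.76e-06).

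Of 12 neuron markers 3 were tested, and 2 were called higher in each comparison with SASCs and none lower. Uchl1, a deubiquitinase abundant in neurons, rose by 4.55 in EASCs and by 3.61 in PASCs. Prph, an intermediate filament of peripheral neurons, rose by 2.19 in PASCs, and its difference of 0.78 in EASCs did not pass (adjusted p = 0.119). Tubb3, a neuronal tubulin also found in cultured mesenchymal cells, rose by 1.93 in EASCs, and its difference of 0.88 in PASCs did not reach 2-fold.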
